A study of Amaranthus palmeri with 48 samples.

Results

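Leaf RNA of the weed Amaranthus palmeri (Palmer amaranth) was compared between plants sprayed with mesotrione 6 h before sampling and untreated plants, pooling a resistant and a susceptible phenotype. The comparison held 12 of the 48 libraries of the series: 6 from mesotrione-treated plants and 6 from untreated plants, all of batch 1. They were chosen by treatment and batch in the sample labels, not by any measured value. Untreated and treated libraries both came from resistant plants 5, 7 and 8 and from susceptible plants 5, 6 and 7, below called lines. All plants grew from seed in a growth chamber, and the labels give a height of 10 to 12 cm at spraying for every library. The labels give neither the mesotrione dose nor the origin of the lines, and they do not say whether untreated plants received a blank spray. They also do not say what a number shared by a treated and an untreated library stands for. The series addresses resistance to several herbicides through their breakdown, so the question here is what leaves of both lines have in common soon after mesotrione.

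Mesotrione blocks 4-hydroxyphenylpyruvate dioxygenase, an enzyme of tyrosine breakdown that supplies homogentisate for plastoquinone and tocopherol synthesis. Plastoquinone carries electrons in photosynthesis and is also needed by phytoene desaturase, so carotenoid synthesis fails and new leaves bleach over days. Plants that tolerate the compound often hydroxylate it with cytochrome P450 enzymes. The count table lists gene models by identifier, with no names or products, so genes of these pathways and markers of leaf cells could not be picked out, and genes are given by identifier. For each comparison at most 2 identifiers are named in each direction. In whole-leaf RNA, fewer cells of a type and less RNA per cell cannot be told apart.

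The untreated libraries held 19414318 to 72979429 counts and the mesotrione libraries 16583010 to 30046691. The herbicide and depth were partly joined: 4 of the 6 untreated libraries were deeper than every mesotrione library. In resistant plants 7 and 8 the untreated library was the shallower, at 0.646 and 0.966 of the counts of its treated partner. In the other 4 plants it held 1.97 to 3.18 times as many. Of 26353 gene models, 18739 had enough counts to be tested. The main gene test was edgeR's quasi-likelihood test, and DESeq2, with its own filter, was the alternative wherever it is named. A gene was called at a Benjamini-Hochberg adjusted p under 0.05 over all genes tested.

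Libraries grouped by plant and line before treatment. On the first component of log2 CPM (counts scaled to library size), with 23.3% of the variance, all resistant libraries lay on one side and all susceptible libraries on the other. The second component, with 18.3%, placed both libraries of plant 5 of each line above every other library. Each of the 12 libraries correlated best with the other library of its own plant, at r = 0.943 to 0.970. After the group means were removed, libraries with the same number still varied together, with r between 0.33 and 0.65 over genes in all 6 pairs. Libraries with different numbers gave r between -0.38 and -0.05. Deviations from the mean of a group of 3 libraries balance out, so negative values between different numbers were partly fixed in advance.

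**Figure D1:**
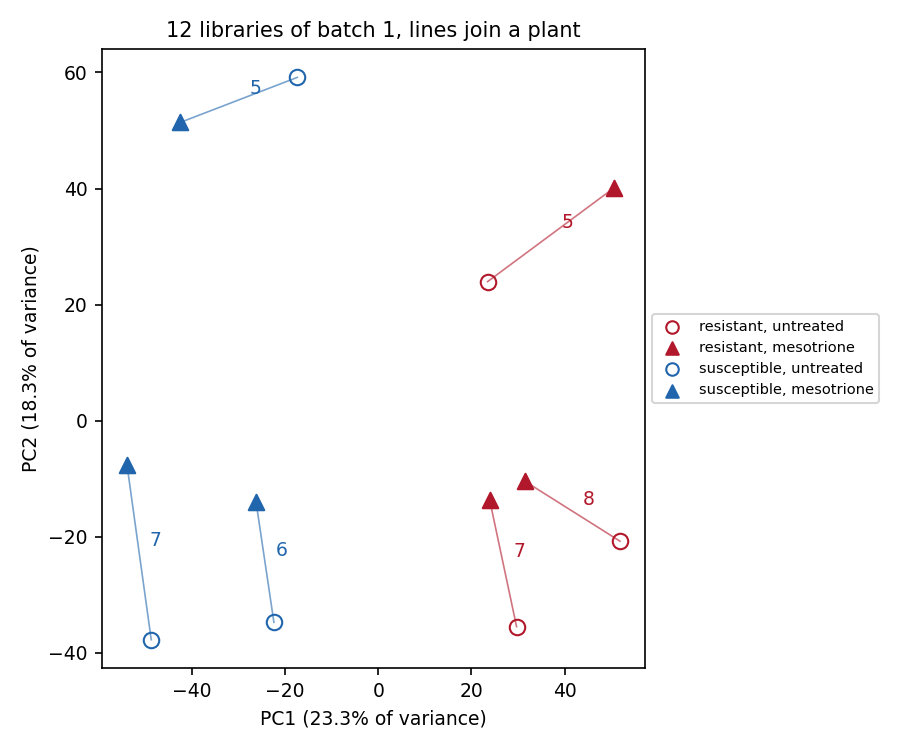
First and second principal component of log2 CPM in the 12 libraries, with their share of the variance on the axes. Open circles are untreated and filled triangles mesotrione-treated, thin strokes join the libraries of a plant, and numbers name the plant. Colour separates the lines on the first axis, while treated and untreated libraries mix.

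One library stood apart from its group: the library labelled untreated, resistant plant 5. The treated minus untreated log2 changes of resistant plant 5 had a mean r of -0.11 with those of the 5 other plants. In the others this mean lay between 0.10 and 0.22. The lowest single value, -0.41, was with susceptible plant 5. These r are taken over 18739 genes, which share libraries and depth and are not replicates. The library did pair with its own number: its deviations correlated at 0.37 with the mesotrione library of plant 5. The mean of the untreated and mesotrione libraries of resistant plant 5 correlated at 0.46 with the untreated resistant library numbered 5 from batch 2. That value does not speak for the untreated library of batch 1 alone. Results below are therefore given with all 6 plants and again without both libraries of this plant.

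With all 6 plants, edgeR called few genes and DESeq2 called more. With the line as the block, edgeR called 0 of 18739 genes (0%), and the smallest adjusted p was 0.108. At an unadjusted p under 0.05 there were 1533 genes (8.18%). DESeq2 with the same design called 167 genes (0.86%), of which 64 were higher (0.33%) and 103 lower (0.53%) after mesotrione. The biological coefficient of variation was 0.416 and the median standard error (SE) of a log2 change 0.203. With the plant within line as the block, the coefficient of variation fell to 0.286 and the median SE to 0.148. Then edgeR called 2 genes, both higher after mesotrione (0.0107%). Before adjustment 2614 genes (13.9%) had p under 0.05. At an adjusted p under 0.1 there were 36 higher and 34 lower genes of the 18739. DESeq2 with the plant block called 698 genes (3.79%), 354 higher (1.92%) and 344 lower (1.87%).

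Intervals taken gene by gene, without adjustment, show the precision of the fits with all 6 plants. These fits include resistant plant 5, without which many more genes were called, as given below. With the plant block, the 95% interval of the log2 change lay within 2-fold in either direction for 14207 genes (75.8%), and within 4-fold for 92.5%. With the line block these shares were 70.5% and 90.4%. With the plant block, the interval was tighter for abundant genes. It lay within 2-fold for 91.4% of the 9904 genes at 10 to 100 CPM, and for 5.27% of the 1766 genes under 1 CPM. For genes under 1 CPM a 2-fold change was therefore mostly not detectable at this depth.

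Counting plants by direction, 688 genes (3.67%) were higher after mesotrione in 6 of 6 plants, and 938 (5.01%) were lower. The largest class, 4215 genes (22.5%), was higher in 3 plants and not in the other 3. In 42 genes (0.224%) all 6 mesotrione libraries lay above all 6 untreated libraries, and in 62 (0.331%) all lay below. A total of 9 genes were at least 2-fold higher in all 6 plants and 3 at least 2-fold lower.

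Both genes called by edgeR rose from plant-specific starting levels, by 2.64-fold and 1.95-fold in the fit with the plant block. AmaPaChr06Ag114690 had 6.57, 4.17 and 5.26 CPM in untreated resistant plants 5, 7 and 8, and 10.8, 5.13 and 3.56 CPM in untreated susceptible plants 5, 6 and 7. After mesotrione the same plants had 12.9, 13.8 and 13.5 CPM, and 27.9, 14.3 and 9.56 CPM. Every plant was higher after treatment, but the groups overlapped because untreated susceptible plant 5 lay above treated susceptible plant 7. The log2 change was 1.40 ± 0.12 (SE, edgeR adjusted p = 0.033 with the plant block), and per plant it ran from 0.97 to 1.71. With the line block it was 1.38 ± 0.31 (adjusted p = 0.26).

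AmaPaChr13Ag206960 was more abundant. It had 187, 98.5 and 157 CPM in untreated resistant plants and 280, 124 and 86.3 CPM in untreated susceptible plants. After mesotrione these were 329, 196 and 354 CPM, and 441, 244 and 181 CPM. The ranking of the plants by level was largely kept, and the groups overlapped. The log2 change was 0.96 ± 0.10 (edgeR adjusted p = 0.048 with the plant block, 0.47 with the line block), and it lay between 0.66 and 1.18 in the 6 plants. Leaving out 1 library at a time, each call was lost in 10 of 12 settings. Both calls were kept without either library of resistant plant 5. The log2 changes were 1.32 to 1.48 for AmaPaChr06Ag114690 and 0.92 to 1.02 for AmaPaChr13Ag206960. With the plant block, a library left out takes its partner out of the comparison. The 12 settings thus stand for leaving out each of the 6 plants.

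With 6 plants edgeR called 0 genes lower, while DESeq2 called 344 with the plant block and 103 with the line block. The 2 lower identifiers named here were lower in every plant. They did not pass edgeR's test, and DESeq2 called both with the plant block (adjusted p = 7.1e-08 and 1.9e-08). AmaPaChr01Ag004950 had 17.9, 46.7 and 47.9 CPM in untreated resistant plants and 39.1, 52.2 and 53.6 CPM in untreated susceptible plants. With mesotrione it had 12.7, 27.2 and 27.4 CPM, and 19.2, 25.2 and 31.7 CPM. The untreated library of resistant plant 5 was the lowest of its group and lay below 5 of the 6 treated libraries. The log2 difference was -0.81 ± 0.10 (edgeR adjusted p = 0.077).

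AmaPaChr13Ag204990 was also lowest among untreated libraries in resistant plant 5. It had 29.7, 73.3 and 107 CPM in untreated resistant plants and 57.9, 56.6 and 32.6 CPM in untreated susceptible plants. With mesotrione it had 21.5, 33.6 and 32.2 CPM, and 22.2, 19.8 and 9.56 CPM. That untreated library lay below 2 of the 6 treated libraries. The difference was smallest in resistant plant 5 at -0.46 and reached -1.77 in susceptible plant 7. Over 6 plants it was -1.32 ± 0.17 (edgeR adjusted p = 0.077).

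**Figure D2:**
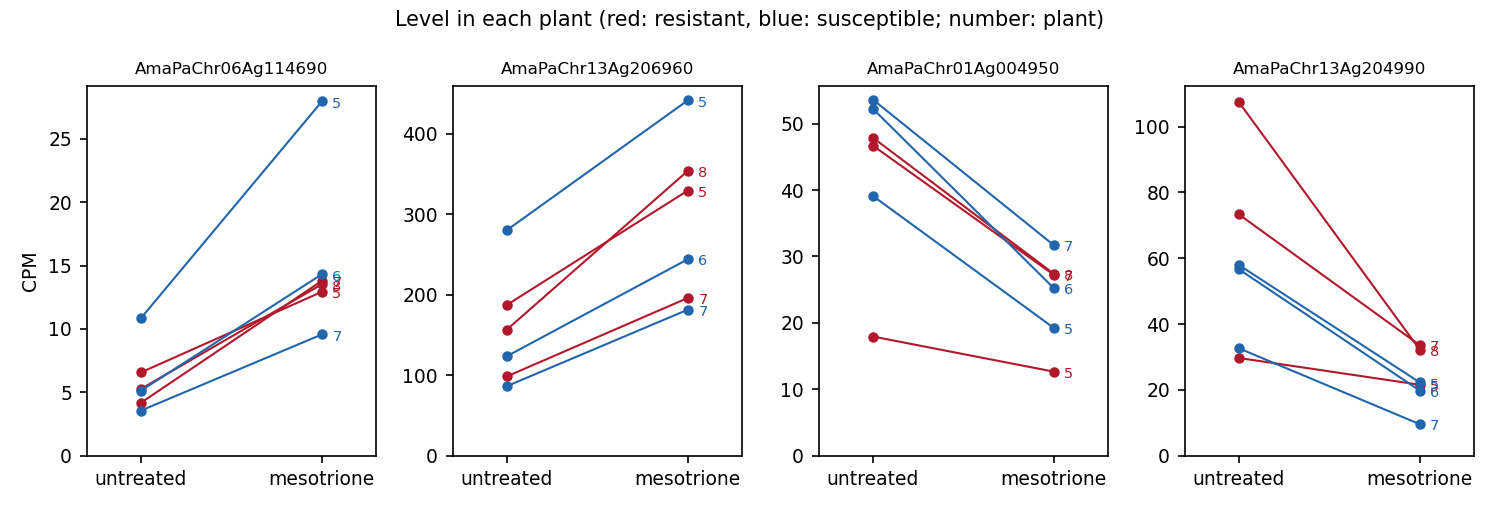
Level in CPM of the 4 named identifiers in each plant, untreated and after mesotrione, with the libraries of a plant joined and numbered, resistant in red and susceptible in blue. All 6 plants are higher after mesotrione in the first pair of panels and lower in the other pair, with the smallest difference there in resistant plant 5.

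Without both libraries of resistant plant 5, many more genes passed the same test. In the 10 libraries of the 5 other plants, edgeR with the plant block called 290 of 18967 genes (1.53%), 170 higher after mesotrione (0.896%) and 120 lower (0.633%). The median log2 change was 0.99 in the higher and -0.92 in the lower genes, against -0.0046 over all genes tested. Of the higher genes 84 changed at least 2-fold and 25 at least 4-fold, and of the lower genes 56 and 11. All 4 identifiers named above were called there, with log2 changes of 1.47 and 0.98 for the risers and -0.88 and -1.50 for the others. Their adjusted p-values were 0.0029, 0.0095, 0.0084 and 0.0029. Of the 290 genes, 190 were also called in the same direction by DESeq2 with all 6 plants. DESeq2 without resistant plant 5 called 1591 genes, 857 higher and 734 lower. The number of genes tested by DESeq2 there is not given here, so these counts have no share. The fits without this plant were added after the correlations of the plants had been seen.

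Resistant plant 5 had no part in choosing these 290 genes, and its libraries show how the same genes stood there. It was left out because its changes over all genes tested correlated poorly with those of the other plants. That its changes differ on this list was therefore partly fixed in advance. Of the 170 higher genes, 54 were higher after mesotrione in resistant plant 5 (31.8%), with a median log2 change of -0.31. In the 5 plants of the fit this median ran from 0.82 to 1.09. Of the 120 lower genes, 62 were lower (51.7%), with a median of -0.02, against -1.12 to -0.78 in the other plants.

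The level in each library showed which of its libraries differed. Over the 170 higher genes, the median log2 CPM in untreated libraries was 3.37 and 3.32 in resistant plants 7 and 8 and 3.87, 3.55 and 3.91 in susceptible plants 5, 6 and 7. In mesotrione libraries of these plants it was 4.30, 4.45, 4.68, 4.49 and 4.84. The mesotrione library of resistant plant 5 lay among them at 4.60. The library labelled untreated from that plant had 4.98, above all 6 mesotrione libraries. Untreated plants of batch 2 ranged from 3.45 to 4.05, with resistant plant 5 at 3.56.

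The 120 lower genes gave the mirror image. Their median log2 CPM was 4.86 to 5.28 in the untreated libraries of the 5 plants and 4.05 to 4.37 in their mesotrione libraries. In resistant plant 5 it was 4.23 after mesotrione and 4.14 in the library labelled untreated, within the mesotrione range. In the untreated plants of batch 2 it was 4.41 to 5.24, and resistant plant 5 had 4.89. Over all genes tested the medians of the 18 libraries stayed between 4.02 and 4.13. On both lists the library labelled untreated thus had levels like those of mesotrione-treated plants, and not like its own plant untreated in batch 2. What sets it apart was not tested.

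**Figure D3:**
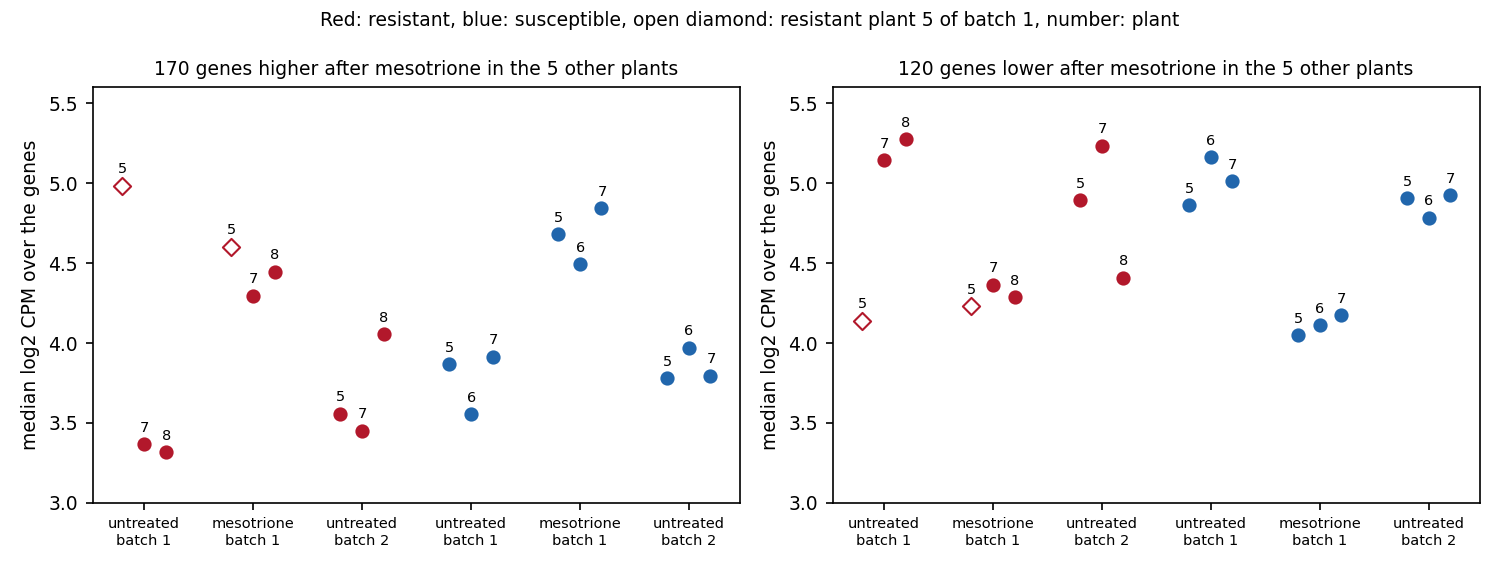
Median log2 CPM over the 170 genes called higher and the 120 called lower after mesotrione in 5 plants, per library, by line, treatment and batch, with plant numbers. Open diamonds are the libraries of resistant plant 5 of batch 1. They did not enter the choice of genes, and were left out after the changes of that plant were seen to differ. The untreated one sits at 4.98 and 4.14, with the mesotrione libraries.

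The same genes were followed against the untreated plants of batch 2, which share no library with the fit. Mesotrione plants of batch 1 were higher in the 170 genes by a median log2 CPM difference of 0.89 in the resistant and 0.92 in the susceptible line, and 163 of 170 were higher in each. They were lower in the 120 genes by medians of -0.56 and -0.70, with 101 and 111 genes lower. The batches also differ here, and the mesotrione libraries are those that chose the genes, except in resistant plant 5. Over all genes tested the medians were 0.0035 and -0.0037.

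The same genes were also followed after the other herbicides. With 2,4-D, which shares its untreated plants with mesotrione, the median log2 differences were 0.03 and 0.23 over the 170 genes in the resistant and the susceptible line. Over the 120 genes they were -0.06 and -0.40. The untreated libraries of the resistant line here include the one of resistant plant 5, with its mesotrione-like levels. Against the same untreated libraries mesotrione gave 0.51 and 0.96 over the 170 genes, and -0.62 and -0.94 over the 120 genes. Against their own untreated plants, the 170 genes had median log2 differences of -1.19 and -1.13 after atrazine in the resistant and the susceptible line. Atrazine blocks electron transport at photosystem II. After chlorsulfuron, which blocks branched-chain amino acid synthesis, they were -0.64 and -0.67. After lactofen, which blocks protoporphyrinogen oxidase, they were 0.04 and -0.62. For the 120 lower genes the medians were 0.43 and 0.19 with atrazine. They were -0.31 and -0.48 with chlorsulfuron and -0.92 and -0.99 with lactofen. Over all genes tested these medians lay between -0.10 and 0.03. The 36 genes higher at an adjusted p under 0.1 with all 6 plants had other medians. In the resistant and the susceptible line these were 0.95 and 0.97 with 2,4-D and -0.18 and -0.01 with atrazine. They were 0.41 and 0.33 with chlorsulfuron and 0.79 and 0.66 with lactofen. The 34 lower genes of that threshold had medians of the same sign as the 120 genes. All are descriptions of lists, with no test.

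The 4 named identifiers were also followed in the other batches and herbicides. AmaPaChr06Ag114690 reached 24.7 CPM in an untreated plant of batch 3, more than in 5 of the 6 mesotrione libraries. After lactofen it was at 0.613 ± 0.229 CPM in resistant and 1.67 ± 0.39 CPM in susceptible plants (SD, n = 3). AmaPaChr13Ag206960 was lower in untreated plants of batch 2, at 46.3 to 84.8 CPM, than in any untreated library of batch 1. With 2,4-D, a synthetic auxin tested in the same batch against the same untreated plants, it had 373 ± 61.2 CPM in resistant and 345 ± 235 CPM in susceptible plants. AmaPaChr01Ag004950 had 15.3 ± 4.0 and 12.3 ± 2.8 CPM there. Its untreated levels were 22.3 to 34.6 CPM in batch 2 and 16.4 to 55.6 CPM in batch 3, overlapping those of batch 1. These ranges also overlapped that of the mesotrione libraries, at 12.7 to 31.7 CPM. After lactofen AmaPaChr01Ag004950 had 0.592 ± 0.477 and 0.753 ± 0.772 CPM. AmaPaChr13Ag204990 in untreated plants had 33.4 to 56.1 CPM in batch 2 and 37.9 to 72.9 CPM in batch 3, all within its untreated range in batch 1. It had 20.2 ± 2.9 and 14.6 ± 5.3 CPM with 2,4-D, and 8.08 ± 2.45 and 5.08 ± 3.21 CPM with lactofen.

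The mean change per plant was smallest for mesotrione among the 5 herbicides. The size of the change was taken as the SD, over the 14166 genes with a mean log2 CPM of at least 2, of the log2 difference between a treated library and the untreated library of its number and batch. For mesotrione it was 0.604, 0.483 and 0.651 in resistant plants 5, 7 and 8, and 0.638, 0.478 and 0.481 in susceptible plants 5, 6 and 7. The mean was 0.556 ± 0.084 (SD, n = 6). It was 1.22 ± 0.19 for atrazine, 1.21 ± 0.16 for chlorsulfuron and 2.00 ± 0.18 for lactofen. No mesotrione value reached the lowest value of these herbicides, which was 1.00. Each of the 3 differences, -0.66, -0.65 and -1.44, gave p = 0.00216 in an exact two-sided permutation test over 924 splits, the smallest p it allows, and the same after Benjamini-Hochberg adjustment. Batch and herbicide cannot be told apart in them. The splits ignored line and plant number, although atrazine and chlorsulfuron values came from the same plant numbers as mesotrione. These p-values thus take the values as independent, and no paired test was run.

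The value for 2,4-D, which shares its untreated plants with mesotrione, was 0.810 ± 0.053, with a range of 0.742 to 0.872. The share of genes that differed at least 2-fold was 3.86% to 8.68% in a mesotrione plant and 9.49% to 15.5% in a 2,4-D plant. It was 23.6% to 37.4% for atrazine, 21.8% to 33.2% for chlorsulfuron and 46.5% to 58.3% for lactofen. These shares include the spread between any pair of libraries.

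**Figure D4:**
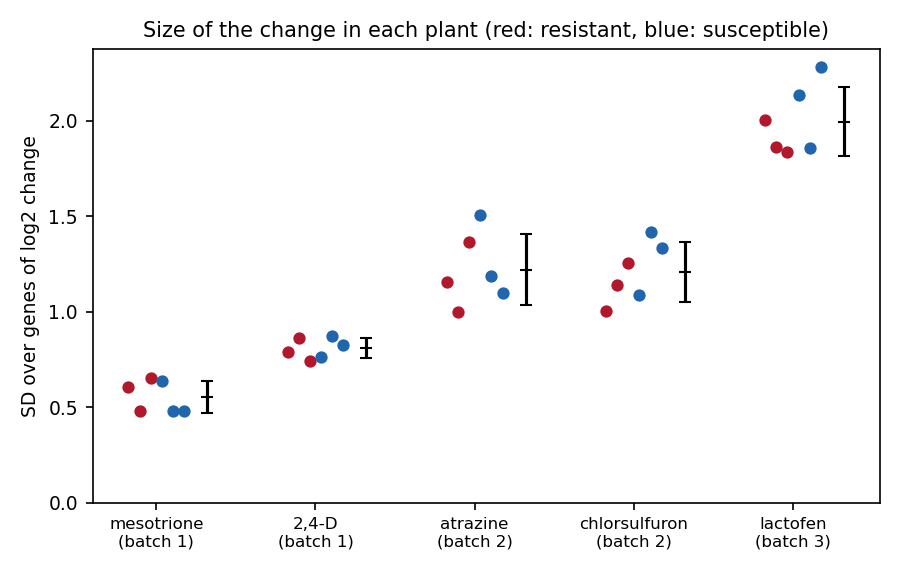
SD over 14166 genes of the log2 change in each plant, by herbicide and batch, with resistant plants in red and susceptible plants in blue. Black bars are the mean and SD of 6 plants, lowest for mesotrione at 0.556 and highest for lactofen at 2.00.

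Few genes passed the test of a difference between the responses of the lines. With a mean per line and treatment, edgeR called 1 gene for the difference between the responses, lower in the resistant line (0.00534%), and 417 genes (2.23%) had an unadjusted p under 0.05. With the plant as the block edgeR called none (0 genes, 0%), while 705 (3.76%) had an unadjusted p under 0.05. DESeq2 with that block called 109 (0.578%), 7 higher (0.0371%) and 102 lower (0.541%) in the resistant line. Without the block DESeq2 called 60 (0.307%), 3 higher (0.0154%) and 57 lower (0.292%). The median SE of this difference was 0.413 on the log2 scale, against 0.203 for the response of both lines together. Without resistant plant 5 edgeR called 4 of 18967 genes, all lower in the resistant line.

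The called gene was AmaPaChr10Ag164470. It had 67.2, 121 and 81.6 CPM in untreated and 14.2, 9.75 and 9.37 CPM in treated resistant plants, with no overlap. In susceptible plants it had 32.0, 34.1 and 32.1 CPM untreated and 51.7, 38.1 and 30.0 CPM with mesotrione. The response of the resistant minus that of the susceptible line was -3.32 ± 0.38 on the log2 scale (SE, edgeR adjusted p = 0.048). The untreated plants of batch 2 had 4.41 to 10.7 CPM in both lines, below every untreated plant of batch 1 and overlapping the treated resistant plants. In batch 3 the gene was at 146 ± 57 and 64.3 ± 29.8 CPM after lactofen, and at 14.7 ± 6.4 and 7.07 ± 1.78 CPM untreated. The call was lost in 11 of 12 settings that left out 1 library, with log2 values of -3.54 to -3.02.

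AmaPaChr11Ag186080 led the opposite direction without passing the test. It had 23.3, 13.0 and 21.4 CPM in untreated and 50.7, 52.9 and 33.0 CPM in treated resistant plants. In susceptible plants it had 41.3, 30.7 and 39.4 CPM untreated and 28.7, 23.0 and 23.8 CPM treated. In neither line did treated and untreated libraries overlap. The difference was 1.78 ± 0.36 (edgeR adjusted p = 0.29).

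Identifiers that begin with AmaPaChr00 were frequent among the calls of the line difference. This set was chosen after its values were seen, and no test is given for it. Of the 60 genes DESeq2 called, 31 had the prefix, all lower in the resistant line. Of the 119 such identifiers tested, 42 (35.3%) had an unadjusted p under 0.05, against 2.23% of all genes. Their median log2 change was -0.76 in the resistant and 0.08 in the susceptible line. Counts of 64 of them were identical to those of another identifier in all 12 libraries, so they are not separate measurements, and reads could be shared between copies.

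Within batch 1 their median level was highest in untreated and lowest in treated resistant plants, with susceptible plants between. The median log2 CPM was 3.69 to 3.84 in untreated and 2.69 to 2.86 in mesotrione-treated resistant plants. It was 3.20 to 3.42 and 3.21 to 3.52 in susceptible plants, and 2.30 to 2.56 in the untreated plants of both lines in batch 2. They took 2.53% to 5.99% of all counts in untreated and 0.820% to 1.62% in treated resistant libraries, and 1.86% to 2.92% in susceptible ones. By this share untreated resistant and susceptible libraries overlapped, while treated resistant libraries lay below both. Without these identifiers edgeR called 0 genes for the line difference, with the adjusted p of AmaPaChr10Ag164470 at 0.0501. Their part in the other calls was not tested.

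**Figure D5:**
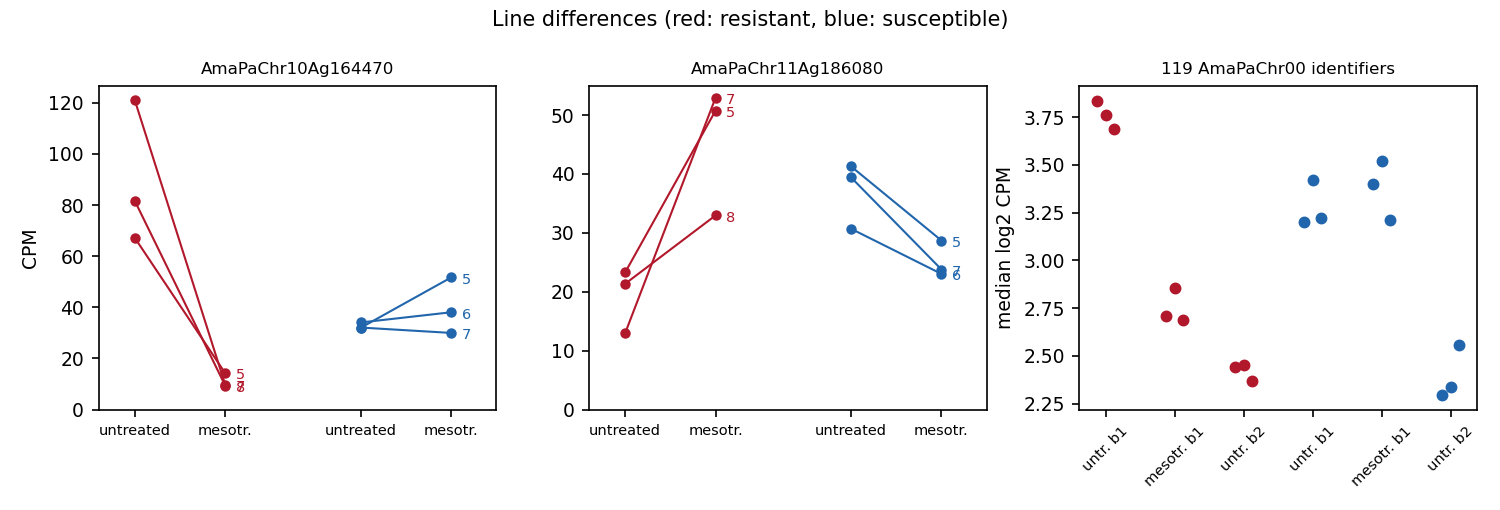
CPM of 2 identifiers in each plant of both lines, untreated and after mesotrione (left and middle), and median log2 CPM of the 119 AmaPaChr00 identifiers per library (right; b1 and b2 are the batches). On the left, resistant plants in red lie at 67.2 to 121 CPM untreated and at 14.2 CPM or less treated, and untreated resistant libraries of batch 1 are the highest on the right.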

How the data were processed

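Leaf RNA was read as stranded polyA libraries of 150 bp read pairs, per the labels. The authors deposited unscaled read counts, in whole numbers, for each gene model and library. Trimmomatic, FastQC, STAR and DESeq2 appear in the submitters' processing notes. Roles, versions, build, annotation and whether counting used strand were not given in the sources used here, so antisense, overlapping or near-identical genes may share reads. Of the counts above 0, 99.1% were even, as when both mates of a pair are counted. A line that names no gene held 0 counts.

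The 12 libraries of the comparison entered 1 fit with edgeR 4.0.16 in R 4.3.3 (TMM scaling, default filter on low counts, robust quasi-likelihood F test), with the line or the plant within line as the block. DESeq2 1.42.0 was the alternative tool. SE is the log2 change divided by the square root of F. CPM use TMM factors over all 48 libraries, and log2 CPM a prior count of 2. Same-numbered libraries varied together in all 6 pairs, and the number comes from the titles, so the plant block is printed beside the line block. Nothing says that libraries came from separate growth runs, so p-values measure the spread between these plants. Named genes of the common response moved one way in every plant and reached 5 CPM in the higher group. Those called in both fits came first, by size, then those called with the plant block, then the smallest unadjusted p, up to 2 per direction. For the line difference they are called genes by size, or else the smallest unadjusted p. The comparison, its lists and its tests were chosen with earlier results of these data known.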

Additional observations from a re-analysis of the deposited data

Results flagged for a closer look

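The mean correlation of the log2 changes of resistant plant 5 with those of the 5 other plants was -0.11, and the gap to the next plant was a large part of the range of the 6 values. In the untreated group AmaPaChr01Ag004950 was far lower in resistant plant 5, at 4.17 log2 CPM or 17.9 CPM, than in the other 5 untreated plants. Both values involve the same library. Of 24 groups of 6 values looked at for such a gap 2 had one, and chance gives about 1 in 20.

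AmaPaChr10Ag164470 had -3.32 on the log2 scale for the resistant minus the susceptible response and was called by edgeR's test of that difference (adjusted p = 0.048). The call was lost with the plant block (adjusted p = 0.20), in 11 of 12 settings that left out 1 library, and without the AmaPaChr00 identifiers (adjusted p = 0.0501). It was lower after mesotrione in all 3 resistant plants, while the susceptible plants had log2 changes of 0.69, 0.16 and -0.10.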

How the results depend on the processing

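With the line block, the count of genes called was 167 with DESeq2, 5 with all 18 libraries of batch 1 in the fit, 14 with all 48, and 17 without resistant plant 5. Leaving out 1 library gave 0 to 52, and 52 came without the untreated library of resistant plant 5. The plant number as a replicate block gave 2.

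With the plant block and its 2 calls, the count was 1 with DESeq2's size factors, with a 2-fold change asked as well, or without robust dispersion. It was 698 with DESeq2, 254 with 18 libraries, 5 with 48, and 70 at an adjusted p under 0.1. Without resistant plant 5 it was 290 with edgeR and 1591 with DESeq2. DESeq2 on counts thinned to the shallowest library gave 539, and no replicate block gave 0. Leaving out 1 library gave 0 to 295, and the values over 200 came without a library of resistant plant 5. The 2 calls were higher, but leaving out either library of susceptible plant 7 gave 0 higher and 2 lower, and either of resistant plant 7 gave 0 higher and 1 lower. The 4 identifiers named for it kept their direction in all 27 settings. They were chosen to move one way in all 6 plants, so this was largely fixed in advance.

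For the difference between the lines, with 1 call, the count was 0 with DESeq2's size factors, 5 with total counts, 60 with DESeq2, 26 with 48 libraries, and 5 at an adjusted p under 0.1. It was 4 without resistant plant 5, 0 with the replicate block and 0 without the AmaPaChr00 identifiers. Leaving out 1 library gave 0 to 14. AmaPaChr11Ag186080 was called with DESeq2 alone.

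The causes of these shifts were not tested. The named identifiers and the size of change kept their direction in every setting run. For the named identifiers, which were chosen by their values in these data, that was largely fixed in advance. The 3 comparisons of the size of change kept their side of the threshold in all 5 settings. Settings that refer to resistant plant 5, to the AmaPaChr00 prefix, to thinning or to an adjusted p of 0.1 were added after the data had been seen. Genes under 1 CPM were measured too coarsely for a 2-fold change.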

Other observations

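Untreated libraries of batch 2 were matched to the plants of batch 1 by their deviations from the mean of the line over 18739 genes. Each plant of batch 1 was taken as the mean of its untreated and mesotrione libraries. The same numbers correlated at 0.46, 0.56 and 0.44 in resistant plants 5, 7 and 8, and at 0.65 and 0.43 in susceptible plants 5 and 6. The library numbered 7 of the susceptible line in batch 2 correlated at -0.05 with plant 7 of batch 1 and at 0.55 with plant 6. That library is the untreated partner of number 7 in the size of change after atrazine and chlorsulfuron, where susceptible number 7 had 1.10 and 1.34, within the ranges of the other plants.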
